A study of Arabidopsis thaliana with 18 samples.

Results

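The genes described here are the 3 gibberellin receptor genes of Arabidopsis thaliana (GID1A, GID1B and GID1C), the 5 DELLA repressor genes (GAI, RGA, RGL1, RGL2 and RGL3), and 2 regulators of the DELLA proteins, SLY1 and SPY. They were chosen by locus, and all 10 were found among the 27827 genes of the array table: AT3G05120 (GID1A), AT3G63010 (GID1B), AT5G27320 (GID1C), AT1G14920 (GAI), AT2G01570 (RGA), AT1G66350 (RGL1), AT3G03450 (RGL2), AT5G17490 (RGL3), AT4G24210 (SLY1) and AT3G11540 (SPY). Gibberellin is the hormone that promotes germination and stem growth. It binds the GID1 proteins, and the loaded receptor then holds a DELLA protein, which otherwise restrains growth and germination in the nucleus. SLY1 is the F-box protein that marks the captured DELLA for breakdown by the proteasome, and SPY attaches O-fucose to DELLA proteins and thereby raises their activity. In seeds, RGL2 is known as the main DELLA that holds back germination.

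RNA came from the accession Columbia-0, for which the labels name no mutation or transgene, at 2 stages. Seedlings were taken after 72 h of imbibition and dry seeds were taken freshly harvested. At each stage 3 preparations were measured. They were polysomal RNA, which sediments with several ribosomes, monosomal RNA, which sediments with a single ribosome, and total RNA. Each of the 6 groups had 3 replicates, 18 arrays in all. Per the labels these are biological replicates from plants grown in randomized complete blocks, and 8 plants were pooled for a replicate. The values are log2 array intensities, so a difference of 1 is a 2-fold difference, and values of different genes are not set against each other because each depends on its own probes.

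The labelled stages were checked with 8 seed marker genes (storage proteins, oil body proteins, late embryogenesis proteins, ABI5 and DOG1) and 8 seedling marker genes (mainly photosynthesis). All 8 seed markers were lower and all 8 seedling markers were higher in seedlings than in dry seeds in each of the 3 RNA preparations (limma, adjusted p under 0.05). Seedling polysomal replicate 3 nevertheless held more seed transcript than its partners. The mean level of the seed markers was 6.08 there, against 3.36 on each of the other seedling polysomal arrays, and 8 of 8 seed markers had their highest value of the 3 on it. Among the seedling monosomal arrays the same mean was highest in replicate 1, at 4.60, against 4.16 and 3.67 on the others, and 5 of 8 seed markers were highest on it. Dry seed arrays lay between 10.42 and 10.75. Calls and counts of the 10 genes that changed when either of those seedling arrays was left out are given with and without it. Array medians, the middle level over all genes of an array, lay between 3.05 and 3.17 in dry seeds and between 3.44 and 3.65 in seedlings. Values below an array's own median are read here as close to the background of the array, so this limit is higher in seedlings. The arrays measure whole seeds and seedlings, so fewer cells of a type and less RNA per cell cannot be told apart. They were also normalized by the authors, so a value is a level relative to the other transcripts of the same preparation and not an amount of RNA.

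In total RNA, 9 of the 10 genes differed between seedlings and dry seeds, 4 higher and 5 lower in seedlings. Of all genes, 62.1% were called in this comparison, 28.8% higher and 33.3% lower. A gene was called when its limma p, adjusted over all 27827 genes, was under 0.05. In monosomal RNA 8 of the 10 were called, 4 in each direction, against 51.6% of all genes (26.8% higher and 24.9% lower). In polysomal RNA 9 were called, 4 higher and 5 lower, against 53.6% of all genes (26.7% higher and 26.8% lower). Stage changes were thus common over all genes, and the share among these 10 is to be read against that background. The values of the 2 stages did not overlap for 9 of the 10 genes in each preparation, against 66.8% of all genes in total, 53.9% in monosomal and 61.5% in polysomal RNA. The median change of the 10 genes was −0.48 in total, −0.24 in monosomal and −0.31 in polysomal RNA, against −0.17, 0.03 and −0.03 for all genes. Centring each array on its own median shifts the median change of all genes by −0.51 in total, −0.36 in monosomal and −0.44 in polysomal RNA. Under loess scaling the median change of the 10 genes was −0.31 in total, 0.06 in monosomal and 0.07 in polysomal RNA, so its sign in the ribosome-bound preparations depends on the scaling, and 5 of the 10 were higher and 4 lower in polysomal RNA. In total RNA, median centring gives 2 of the 10 genes higher and 5 lower, and 5783 of all genes higher and 15017 lower, against 8019 higher and 9275 lower with the values as deposited.

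**Figure D1:**
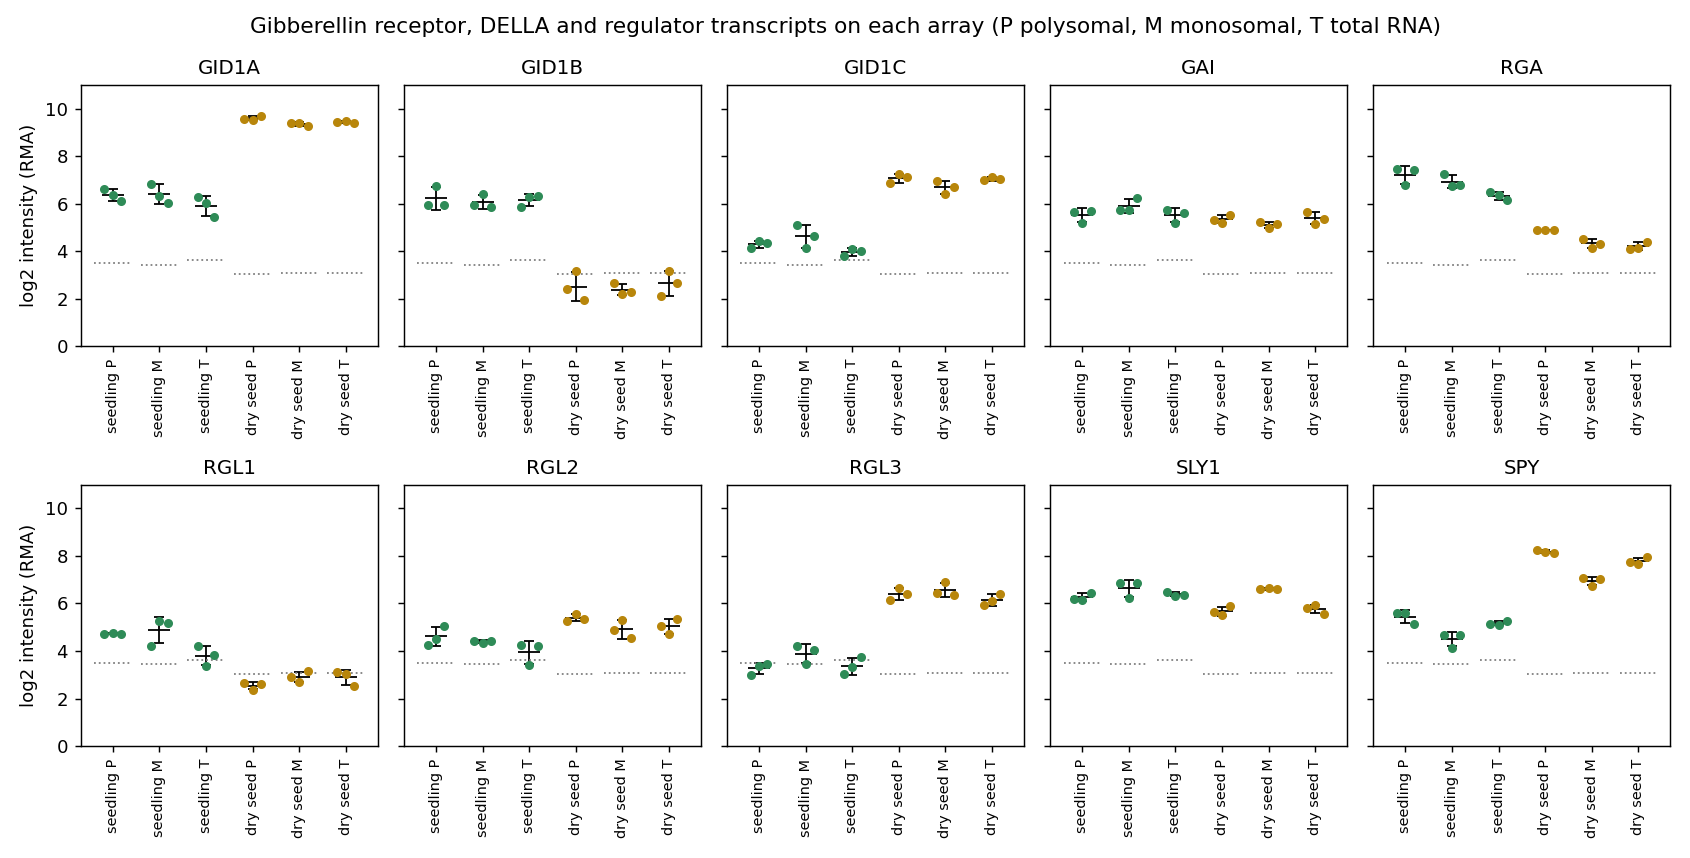
Log2 array intensity of each of the 10 genes on every array (points, green for seedlings and brown for dry seeds) with the group mean ± SD (bars, n = 3). The dotted line at each group is its lowest array median. Most points of GID1B and RGL1 in dry seeds lie below it, and those of RGL3 in seedlings lie around it.

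The 3 receptor genes did not move together: GID1B was higher in seedlings, while GID1A and GID1C were lower there. GID1A, a receptor gene known to be active in germinating seeds, had levels of 6.26, 6.05 and 5.46 in seedling total RNA, against 9.44, 9.47 and 9.38 in dry seed total RNA. Its change was −3.51 (SE 0.23, adjusted p = 6.15e-11), an 11.4-fold lower level. In monosomal RNA it had 6.85, 6.31 and 6.02 in seedlings, against 9.40, 9.41 and 9.27 in dry seeds, and in polysomal RNA 6.64, 6.35 and 6.11 in seedlings, against 9.59, 9.53 and 9.70 in dry seeds. Every seedling array lay below every dry seed array, and the changes were −2.97 (monosomal, adjusted p = 7.34e-10) and −3.24 (polysomal, adjusted p = 1.89e-10).

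GID1B moved the other way. It had levels of 5.87, 6.28 and 6.31 in seedling total RNA, against 2.11, 3.18 and 2.65 in dry seed total RNA. The change was 3.51 (SE 0.31, adjusted p = 6.39e-09), an 11.4-fold higher level in seedlings. Polysomal RNA held 5.95, 6.76 and 5.96 in seedlings, against 2.41, 3.15 and 1.96 in dry seeds. Monosomal RNA held 5.97, 6.43 and 5.87 in seedlings, against 2.67, 2.21 and 2.28 in dry seeds. The changes there were 3.70 (monosomal, adjusted p = 2.97e-09) and 3.71 (polysomal, adjusted p = 2.69e-09). All 9 seedling arrays had GID1B above their own median, but only 2 of the 9 dry seed arrays did. The dry seed levels are therefore close to background, and the fold rests on a level that the arrays hardly resolve.

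GID1C followed GID1A in direction. Its levels were 3.78, 4.10 and 4.03 in seedling total RNA, against 6.98, 7.12 and 7.02 in dry seed total RNA, and 4.13, 4.42 and 4.34 in seedling polysomal RNA, against 6.87, 7.24 and 7.12 in dry seed polysomal RNA. It was 8.42-fold lower in seedling total RNA (change −3.07, SE 0.22, adjusted p = 3.31e-10) and 6.85-fold lower in seedling polysomal RNA (−2.78, adjusted p = 1.45e-09). In monosomal RNA it had 5.11, 4.13 and 4.64 in seedlings, against 6.98, 6.40 and 6.69 in dry seeds, with a change of −2.07 (adjusted p = 1.12e-07). The monosomal change was the smallest of the 3 in value. Across the 18 arrays GID1A correlated with GID1C at Pearson r = 0.98 and with GID1B at r = −0.97. These correlations describe arrays that share the split into seedlings and dry seeds.

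The 5 DELLA genes were also split by stage. RGA, a DELLA that restrains stem and hypocotyl growth, was higher in seedlings in all 3 preparations. It had 6.50, 6.36 and 6.16 in seedling total RNA, against 4.10, 4.13 and 4.41 in dry seed total RNA. The change was 2.12 in total RNA (SE 0.21, adjusted p = 2.59e-08), or 4.36-fold, with 2.60 in monosomal RNA (adjusted p = 1.40e-09) and 2.34 in polysomal RNA (adjusted p = 6.39e-09). The lowest RGA level of any seedling array was 6.16 and the highest of any dry seed array was 4.90, so the stages did not overlap.

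RGL1, a DELLA linked to germination and flower development, was the other one called higher in seedlings in every preparation. It had 4.20, 3.38 and 3.83 in seedling total RNA, against 3.12, 3.03 and 2.51 in dry seed total RNA. The change in total RNA was 0.91 (SE 0.26, adjusted p = 0.00489). It was larger in value in the ribosome-bound preparations, 1.97 in monosomal RNA (adjusted p = 1.84e-06) and 2.19 in polysomal RNA (adjusted p = 4.11e-07). Only 1 of the 9 dry seed arrays had RGL1 above its own median. The total RNA change was 0.41 (adjusted p = 0.151) when arrays were centred on their medians and 0.45 under loess scaling (adjusted p = 0.142), so that call depends on the scaling.

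RGL3, a DELLA gene linked to jasmonate responses, was lower in seedlings. Its levels were 3.04, 3.32 and 3.74 in seedling total RNA, against 5.93, 6.13 and 6.40 in dry seed total RNA. The change was −2.79 (SE 0.24, adjusted p = 4.74e-09), or 6.90-fold, and it was −2.69 in monosomal RNA (adjusted p = 8.33e-09) and −3.12 in polysomal RNA (adjusted p = 8.73e-10). All 9 dry seed arrays had RGL3 above their own median, and 3 of the 9 seedling arrays did. On seedling polysomal replicate 3, the array with the most seed transcript, RGL3 was at 3.45, against 3.01 and 3.37 on the other seedling polysomal arrays.

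RGL2, the DELLA best known from seed germination, was lower in seedlings with a change smaller in value than that of RGL3. It had 4.26, 3.39 and 4.20 in seedling total RNA, against 5.04, 4.71 and 5.35 in dry seed total RNA, and the change was −1.08 (SE 0.26, adjusted p = 0.00132). In polysomal RNA it had 4.25, 4.52 and 5.06 in seedlings, against 5.28, 5.56 and 5.37 in dry seeds, with a change of −0.79 (adjusted p = 0.0142). That call was lost with loess scaling (−0.51, adjusted p = 0.119), without dry seed polysomal replicate 2 (adjusted p = 0.0545) and without seedling polysomal replicate 1 (adjusted p = 0.0844). Without seedling polysomal replicate 3 the change was −1.02 (adjusted p = 0.0041). In monosomal RNA the levels were 4.43, 4.34 and 4.44 in seedlings, against 4.89, 5.30 and 4.53 in dry seeds. The groups did not overlap there, but the change of −0.50 did not pass the test (adjusted p = 0.117). Centring arrays on their medians took it to −0.86 (adjusted p = 0.0091).

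GAI, the DELLA named for its gibberellin-insensitive dwarf mutant, was called in monosomal RNA alone. In total RNA it had 5.75, 5.19 and 5.61 in seedlings, against 5.66, 5.17 and 5.34 in dry seeds, and the groups overlapped (change 0.13, 95% confidence interval −0.33 to 0.58, adjusted p = 0.628). Polysomal RNA gave 5.67, 5.20 and 5.71 in seedlings, against 5.33, 5.20 and 5.53 in dry seeds (0.17, 95% confidence interval −0.28 to 0.62, adjusted p = 0.562). Monosomal RNA gave 5.73, 5.72 and 6.26 in seedlings, against 5.23, 4.97 and 5.15 in dry seeds, a change of 0.78 (SE 0.22, adjusted p = 0.00423). With arrays centred on their medians the total and polysomal changes were −0.38 and −0.27, also not called, and the monosomal change was 0.42 (adjusted p = 0.107). With loess scaling the polysomal change was 0.64 (adjusted p = 0.0213).

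SPY fell with stage in all 3 preparations. It had 5.15, 5.11 and 5.26 in seedling total RNA, against 7.75, 7.67 and 7.94 in dry seed total RNA. The change was −2.61 in total RNA (SE 0.19, adjusted p = 4.19e-10), or 6.11-fold, with −2.44 in monosomal RNA (adjusted p = 1.21e-09) and −2.74 in polysomal RNA (adjusted p = 1.99e-10). No seedling array reached the level of any dry seed array: the highest seedling value was 5.61 and the lowest dry seed value 6.73.

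SLY1 changed least with stage among the genes called in total RNA. Its levels were 6.49, 6.32 and 6.37 in seedling total RNA, against 5.81, 5.92 and 5.57 in dry seed total RNA, a change of 0.62 (SE 0.19, adjusted p = 0.00857). In polysomal RNA the change was 0.60 (adjusted p = 0.0123), and in monosomal RNA it was 0.02 (adjusted p = 0.934). With arrays centred on their medians, the changes were 0.12 in total (adjusted p = 0.589) and 0.16 in polysomal RNA (adjusted p = 0.465), neither called, and −0.34 in monosomal RNA, so the stage calls of SLY1 depend on how the arrays are scaled. The polysomal call was also lost without seedling polysomal replicate 3 (0.51, adjusted p = 0.0571) and without dry seed polysomal replicate 2 (0.51, adjusted p = 0.0594).

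The calls of GID1A, GID1B, GID1C, RGA, RGL3 and SPY in the stage comparisons kept their direction and their side of the threshold under the alternatives tried, including each fit without 1 array. Without seedling polysomal replicate 3, 8 of the 10 genes were called in polysomal RNA, and without seedling monosomal replicate 1, 8 were called in monosomal RNA. On seedling polysomal replicate 3, GID1A was at 6.11 and SPY at 5.12, each the lowest of the 3 seedling polysomal values, and GID1C was at 4.34, the middle value. RGL2 at 5.06 and RGL3 at 3.45 each had their highest seedling polysomal value on that array. The part of the seed transcripts in these levels was not tested.

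**Figure D2:**
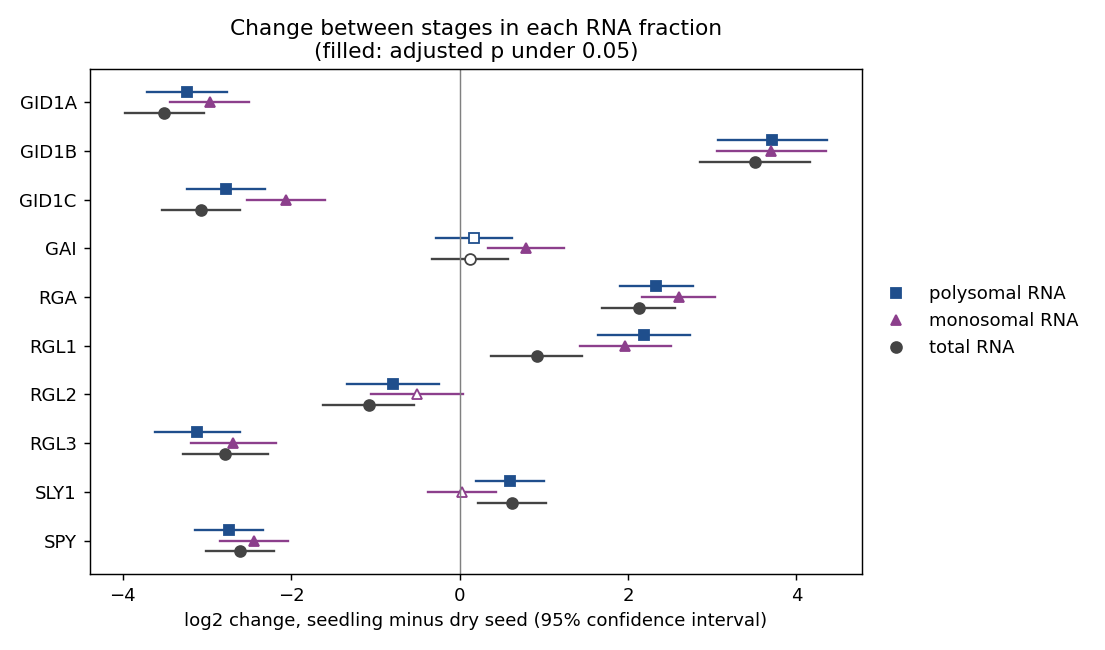
Log2 change of the 10 genes, seedling minus dry seed, in total, monosomal and polysomal RNA, with 95% confidence intervals from limma. Filled points passed an adjusted p of 0.05; GID1B, RGA and RGL1 lie to the right of 0 and GID1A, GID1C, RGL3 and SPY to the left in all 3 preparations.

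The 6 group means of each gene gave an order of levels. For GID1A, GID1C, RGL3 and SPY the 3 dry seed groups stood above the 3 seedling groups, and for GID1B, RGA and RGL1 the 3 seedling groups stood above the 3 dry seed groups, with no overlap of values at the step between stages. GID1B groups overlapped with their neighbour at every other step. For SPY, the order in each stage was polysomal, total, monosomal, and the only neighbours with overlapping values were seedling polysomal (mean 5.44) and seedling total RNA (5.17). SLY1 had the 2 monosomal groups on top, with means of 6.64 in seedlings and 6.61 in dry seeds that overlapped, then seedling total, seedling polysomal, dry seed total and dry seed polysomal RNA. RGL2 groups overlapped with their neighbour at every step but the last, between seedling monosomal (4.40) and seedling total RNA (3.95). GAI was highest in seedling monosomal RNA (5.90), with all lower groups overlapping their neighbours.

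Comparing RNA preparations within a stage shows how the transcripts of a gene were distributed relative to other transcripts. In seedlings, 4 of the 10 genes differed between monosomal and total RNA, against 31.8% of all genes called. Without seedling monosomal replicate 1, and likewise in a fit with those groups alone, 2 of the 10 were called. Between polysomal and total RNA 2 differed, against 20.5% of all genes, and between polysomal and monosomal RNA 1 differed, against 19.1%. In dry seeds, 2 of the 10 differed between monosomal and total RNA, against 6.21% of all genes, and 2 between polysomal and monosomal RNA, against 19% of all genes. Between polysomal and total RNA of dry seeds limma called 0 of the 10, against 4.65% of all genes; 1 had an unadjusted p under 0.05, and 1 (RGA) was called with a trend and robust variance prior. GID1A, GID1B, GAI, RGL2 and RGL3 were not called between any pair of preparations with all arrays as deposited. In seedlings, RGL3 passed without monosomal replicate 2 (0.75 for monosomal against total RNA, adjusted p = 0.0326, and −0.83 for polysomal against monosomal RNA, adjusted p = 0.0288), and it also passed in both under loess scaling. GID1A passed for monosomal against total RNA without seedling monosomal replicate 3 (0.66, adjusted p = 0.0489). Centring arrays on their medians also brought in GID1A, GAI and RGL3 for monosomal and RGL2 for polysomal against total RNA of seedlings, with adjusted p between 0.0322 and 0.0497. It took away 1 call, that of SPY for monosomal against total RNA of seedlings. The changes that did not pass lay between −0.61 and 0.66 in seedlings and between −0.37 and 0.68 in dry seeds. The comparisons within a stage share arrays, so they are not independent of each other.

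SPY was higher in polysomal than in monosomal RNA at both stages. In seedlings it had 5.61, 5.59 and 5.12 in polysomal RNA, against 4.67, 4.14 and 4.67 in monosomal RNA (change 0.95, SE 0.19, adjusted p = 0.00236). In dry seeds it had 8.26, 8.16 and 8.13 in polysomal RNA, against 7.05, 6.73 and 7.02 in monosomal RNA (1.25, adjusted p = 0.000182). None of the polysomal values overlapped with the monosomal values of the same stage. SPY was also lower in monosomal than in total RNA, by a change of −0.68 in seedlings (adjusted p = 0.0122) and −0.85 in dry seeds (adjusted p = 0.0112). The seedling call was lost without seedling monosomal replicate 2 (−0.50, adjusted p = 0.0647) and with arrays centred on their medians. The dry seed call was lost without dry seed monosomal replicate 2 (−0.75, adjusted p = 0.0604) and in a fit with those groups alone (adjusted p = 0.061).

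SLY1 in dry seeds showed the opposite order. It had 5.65, 5.50 and 5.89 in dry seed polysomal RNA, against 6.59, 6.66 and 6.59 in dry seed monosomal RNA, a change of −0.94 (SE 0.19, adjusted p = 0.00195). Monosomal RNA was also above total RNA, which had 5.81, 5.92 and 5.57, by 0.85 (adjusted p = 0.0116), a call lost without dry seed total replicate 3 (0.75, adjusted p = 0.052) and in a fit with those groups alone (adjusted p = 0.055). In seedlings its levels were 6.21, 6.16 and 6.45 in polysomal RNA, 6.84, 6.22 and 6.85 in monosomal RNA and 6.49, 6.32 and 6.37 in total RNA, and no pair of seedling preparations was called. Without seedling monosomal replicate 2, polysomal RNA was lower than monosomal RNA in seedlings (−0.57, adjusted p = 0.0441).

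RGA and RGL1 were higher in ribosome-bound than in total RNA of seedlings. RGA had 7.46, 6.79 and 7.43 in seedling polysomal RNA and 7.26, 6.74 and 6.80 in seedling monosomal RNA, against 6.50, 6.36 and 6.16 in seedling total RNA. All polysomal and monosomal values lay above all total RNA values, with changes of 0.89 (polysomal, SE 0.21, adjusted p = 0.00481) and 0.60 (monosomal, adjusted p = 0.0345). Without seedling polysomal replicate 3 the polysomal change was 0.79 (adjusted p = 0.0267). The monosomal call was lost without seedling monosomal replicate 1 (0.43, adjusted p = 0.145), and likewise without seedling total replicate 2 (adjusted p = 0.0715) or 3 (adjusted p = 0.121). In dry seeds RGA had 4.88, 4.90 and 4.89 in polysomal RNA, against 4.52, 4.16 and 4.32 in monosomal RNA and 4.10, 4.13 and 4.41 in total RNA. All dry seed polysomal values lay above those of the other dry seed preparations, but polysomal RNA differed from total RNA by 0.68 (adjusted p = 0.0648) and from monosomal RNA by 0.56 (adjusted p = 0.0662), and neither passed the test. Without seedling polysomal replicate 2 both did (adjusted p = 0.048 against total and 0.0443 against monosomal RNA).

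RGL1 had 4.71, 4.77 and 4.72 in seedling polysomal RNA and 4.23, 5.25 and 5.18 in seedling monosomal RNA, against 4.20, 3.38 and 3.83 in seedling total RNA. The changes were 0.93 (polysomal, SE 0.26, adjusted p = 0.0158) and 1.08 (monosomal, adjusted p = 0.00437). The polysomal call was lost without seedling total replicate 2, the lowest of the total RNA values (0.72, adjusted p = 0.0936). Without seedling monosomal replicate 1 the monosomal change was 1.41 (adjusted p = 0.000481). Dry seed RGL1 lay between 2.37 and 3.14 in all 3 preparations, close to background.

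**Figure D3:**
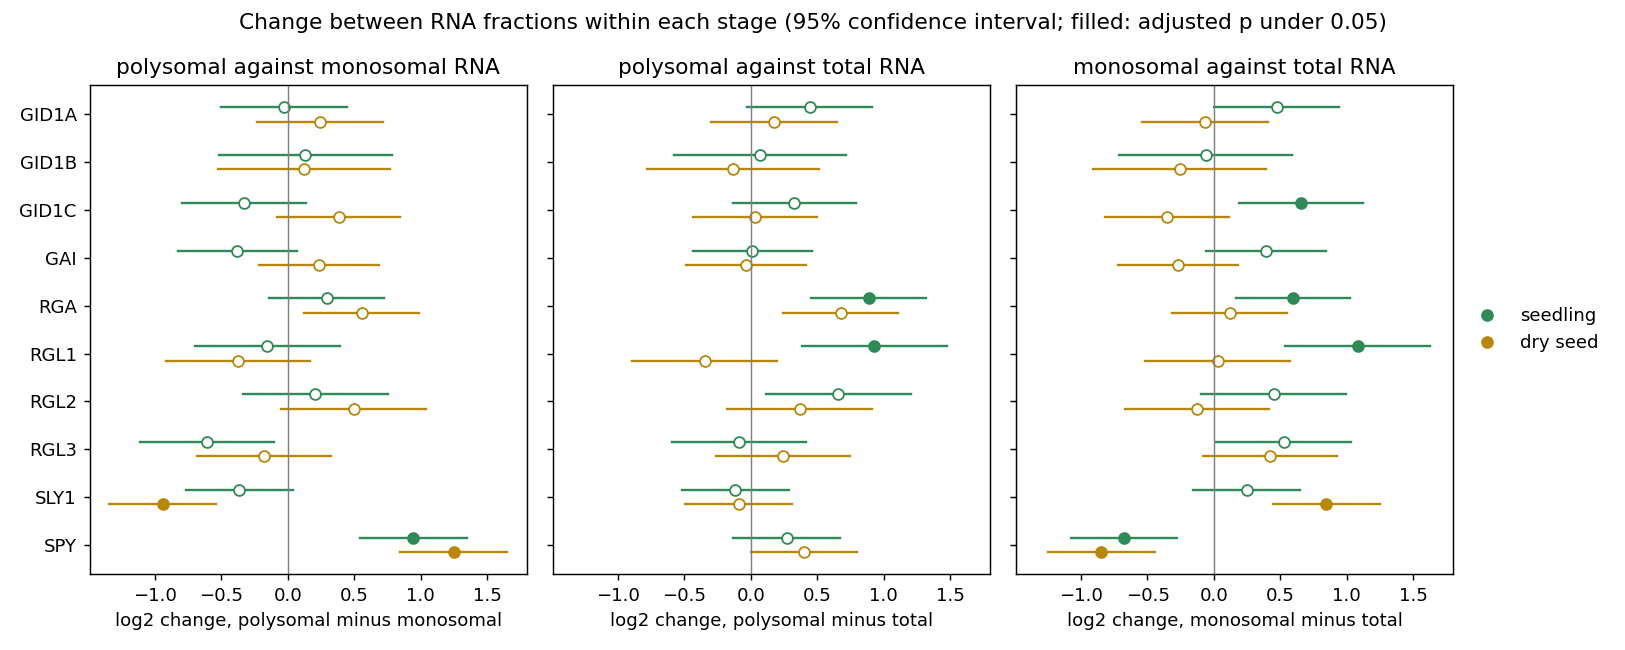
Log2 change of the 10 genes between RNA preparations, seedlings above dry seeds for each gene, with 95% confidence intervals from limma; filled points passed an adjusted p of 0.05. SPY lies to the right of 0 at both stages for polysomal against monosomal RNA and SLY1 of dry seeds to the left.

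Whether a preparation difference itself changed with stage was tested as a difference of differences, seedling minus dry seed. For monosomal against total RNA 1 of the 10 genes was called, against 19.1% of all genes, and for polysomal against total RNA 1, against 9% of all genes. For polysomal against monosomal RNA limma called 0 of the 10, against 10.5% of all genes, with 2 at an unadjusted p under 0.05. GID1C was the gene called for monosomal against total RNA. It was higher in monosomal than in total RNA of seedlings by 0.66 (adjusted p = 0.0309), a call lost in 4 of 18 fits without 1 array. Those left out seedling monosomal replicate 1 (0.41, adjusted p = 0.162) or 3 (0.65, adjusted p = 0.0657), or seedling total replicate 1 (0.56, adjusted p = 0.11) or 3 (0.68, adjusted p = 0.058). The difference between the stages was 1.01 (SE 0.31, adjusted p = 0.0313). RGL1 was the gene called for polysomal against total RNA, with a difference between stages of 1.28 (SE 0.37, adjusted p = 0.0361) and dry seed levels close to background. Neither call held in every fit without 1 array. That of GID1C was lost in 5 of 18 fits, including the one without seedling monosomal replicate 1 (0.77, adjusted p = 0.076). That of RGL1 was lost in 10 of 18. Without seedling polysomal replicate 3 the RGL1 change stayed at 1.28 but was not called (adjusted p = 0.0635). Those 2 arrays are the seedling arrays with the most seed transcript of their groups, and both calls were also lost without single dry seed arrays. RGL1 stood just outside the threshold for monosomal against total RNA (1.05, adjusted p = 0.0508), and it passed once arrays were centred on their medians (1.20, adjusted p = 0.0228) and under loess scaling (1.17, adjusted p = 0.0334). Without seedling monosomal replicate 1, RGL1 passed there as well (1.38, adjusted p = 0.00774), while GID1C did not. RGL1 also passed without dry seed total replicate 3 (adjusted p = 0.03) or seedling total replicate 1 (adjusted p = 0.0325). The difference of SPY between polysomal and monosomal RNA was not called as different between the stages.

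For each gene, the named genes with the most similar pattern over the 18 arrays were sought among 10555 named genes, as a description. GID1A was most like NAC032 (Pearson r = 0.99) and RBK2 (r = 0.99); RBK2 lies close to GID1A, with 1 protein-coding gene between them in the RefSeq gene table. GID1B was most like APE2 and FBA2 (r = 0.99 each), which encode plastid proteins, and of which FBA2 is also on the list of seedling markers. GID1C was most like LHT7 and SD2-5 (r = 0.99 each), RGL3 most like UGE5 (r = 0.99) and CYP76C2 (r = 0.98), and SPY most like DML1 and SGR2 (r = 0.99 each). RGA was most like HEME2 and ADC2 (r = 0.98 each) and RGL1 most like FZR3 and APG3 (r = 0.96 each). The likeness was weaker for RGL2, with PAP24 and VOZ1 (r = 0.91 each), for SLY1, with PYR1 (r = 0.89) and MT1C (r = 0.87), and for GAI, with ASAT1 (r = 0.82) and PID2 (r = 0.79). The 18 arrays share the split into seedlings and dry seeds, as for the correlations between the receptors.

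The genes around the receptors and DELLAs were described with 3 lists. Of 18 partners of the pathway (subunits of the SLY1 ubiquitin ligase, DELLA-binding factors and gibberellin-linked MYB factors), 4 were higher and 11 lower in seedling total RNA. In monosomal RNA 3 were higher and 8 lower, and in polysomal RNA 4 were higher and 11 lower. Of all genes, 28.8% were higher and 33.3% lower in total, 26.8% and 24.9% in monosomal, and 26.7% and 26.8% in polysomal RNA. The median change of the list was −0.76 in total RNA, against −0.17 for all genes. BOI, a RING protein that binds DELLAs, averaged 2.17 ± 0.20 in seedlings and 6.14 ± 0.14 in dry seeds in total RNA (SD, n = 3 each; change −3.97), so its seedling level was below the array medians and close to background. ENY, a zinc finger protein that binds DELLAs, averaged 5.88 ± 0.18 in seedlings and 9.18 ± 0.08 in dry seeds (change −3.30). SPT, a bHLH factor of seed germination, went the other way and averaged 6.36 ± 0.27 in seedlings and 2.56 ± 0.24 in dry seeds (change 3.79), where it was close to background. The 4 BOI-type genes did not move together in total RNA: BOI and BRG3 were lower in seedlings, BRG2 was higher (2.73), and BRG1 was not called (−0.36), although it was once arrays were centred on their medians (−0.86, adjusted p = 0.00921). SEC, the O-GlcNAc transferase related to SPY, was lower in seedlings like SPY, with changes of −1.49 in total, −0.77 in monosomal and −1.65 in polysomal RNA. Loess scaling took the monosomal change to −0.35 (adjusted p = 0.124). SNE, the F-box gene related to SLY1, was not called in any preparation and averaged 2.43 in seedling and 2.66 in dry seed total RNA. With arrays centred on their medians it was lower in seedling total RNA (−0.73, adjusted p = 0.0315), and the list then had 3 members higher and 14 lower.

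Of 12 genes known to respond to DELLA proteins, 6 were higher and 4 lower in seedling total RNA, 6 higher and 4 lower in monosomal RNA, and 7 higher and 4 lower in polysomal RNA. The shares called among all genes were 62.1% in total, 51.6% in monosomal and 53.6% in polysomal RNA, and the list's median change in total RNA was 0.72. SOM, a zinc finger gene that represses light-dependent germination, averaged 6.80 ± 0.04 in seedlings and 11.17 ± 0.04 in dry seeds in total RNA (SD, n = 3 each; change −4.37). XERICO and SCL3 were lower in seedlings by changes of −1.95 and −2.17 in total RNA. GA3OX1, also on this list, was higher in seedlings by 2.36, from a dry seed level close to background. GASA6, a gibberellin-induced cell wall peptide gene, averaged 6.30 ± 0.14 in seedlings and 2.82 ± 0.40 in dry seeds (change 3.48), and GASA4 was also higher (7.79). LBD40 was lower in seedlings (−2.86). GASA6 in dry seeds and LBD40 in seedlings, with a mean of 3.08, were below the array medians.

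Of 21 genes of gibberellin synthesis and inactivation, 4 were higher and 8 lower in seedling total RNA, 3 higher and 4 lower in monosomal RNA, and 3 higher and 5 lower in polysomal RNA. The 12 genes called in total, 7 in monosomal and 8 in polysomal RNA stand against 62.1%, 51.6% and 53.6% of all genes. GA3, the ent-kaurene oxidase, averaged 4.74 ± 0.16 in seedlings and 7.80 ± 0.22 in dry seeds in total RNA (SD, n = 3 each; change −3.07), and KAO2, an ent-kaurenoic acid oxidase, 4.76 ± 0.09 in seedlings and 7.53 ± 0.10 in dry seeds (change −2.78). GA3OX1 and GA3OX2, which encode enzymes of the last activating step, went the other way. GA3OX1 averaged 4.97 ± 0.41 in seedlings and 2.61 ± 0.23 in dry seeds (change 2.36), and GA3OX2 was higher by 4.39. Both were below the array medians in dry seeds, where GA3OX2 averaged 1.87, so the sizes of these changes rest on levels close to background. Of the GA2OX genes, whose enzymes inactivate gibberellin, GA2OX2 and GA2OX7 were lower in seedling total RNA (−0.75 and −0.95, GA2OX7 with means below the array medians at both stages) and the other 5 GA2OX genes of the list were not called there. With arrays centred on their medians 4 of those 5 were lower as well (GA2OX1, GA2OX3, GA2OX4 and GA2OX8, changes of −0.74, −0.86, −0.71 and −1.02), and the list had 3 members higher and 14 lower in total and 3 higher and 9 lower in monosomal RNA. SCL3 stands on both the list of partners and that of DELLA-responsive genes, and GA3OX1 and GA20OX2 stand on both the DELLA-responsive and the synthesis lists.

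**Figure D4:**
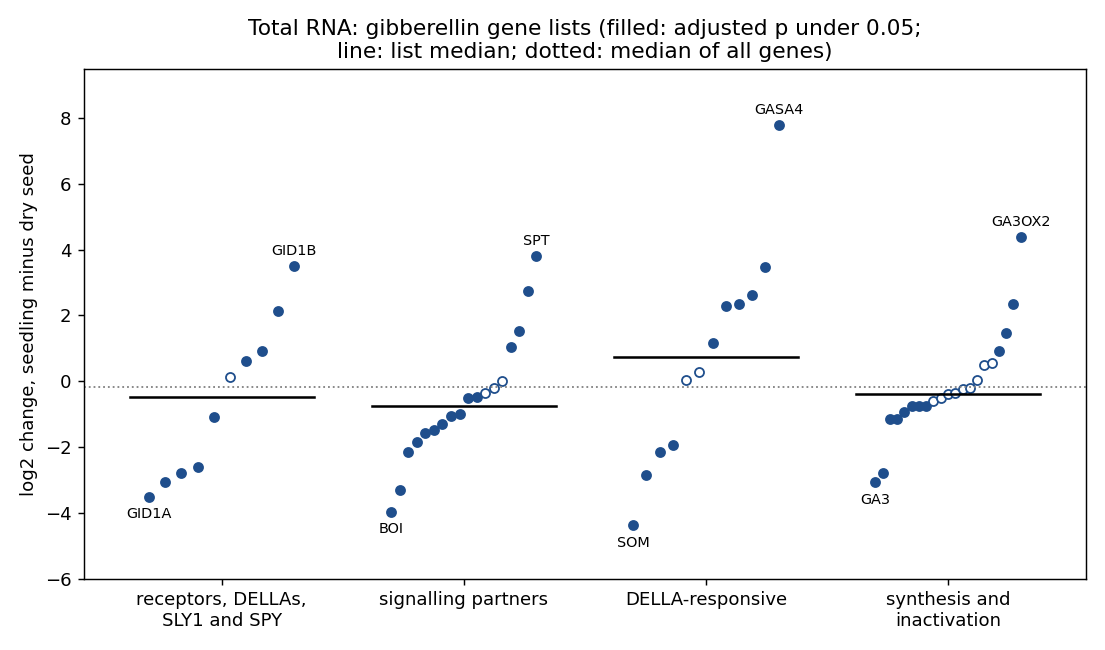
Log2 change in total RNA, seedling minus dry seed, of the 10 genes and of every gene of the 3 pathway lists, in order of the change within each list. Filled points passed an adjusted p of 0.05, the bars are list medians and the dotted line is the median of all genes; among the largest, GASA4 lies at 7.79 and SOM at −4.37.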

How the data were processed

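The authors deposited a single log2 intensity for each gene locus on each array, made with RMA (robust multi-array averaging) according to the submitters' processing notes. The RMA version, the array platform and the grouping of probes are not given in the sources used here. RNA was labelled with a 3′ one-cycle kit, per the labels' protocols, which describe the purification of total and polysomal RNA but do not mention the monosomal preparation. No detection calls and no amounts of RNA per preparation were used, and 3 arrays per group limit the precision. Of 27827 rows, 27241 were matched by locus to RefSeq's genes for TAIR10.1. That table served for names and neighbouring genes, and no coordinates or sequences are given. No member shared its values with another row.

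A linear model with 6 group means and 12 residual degrees of freedom was fitted to all rows with limma 3.58.1 (R 4.3.3), using its moderated test and no filter. There were 12 comparisons: the stages within each preparation, the preparations in pairs at each stage, and the change of each such pair difference from dry seeds to seedlings. In every comparison p was adjusted over all 27827 rows by Benjamini and Hochberg, and called under 0.05. Adjusted p-values in the text are from this model unless a scaling, a left-out array or another fit is named with them. The script was tested on simulated data.

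All 10 genes were named in the stage comparisons. Of each pathway list, up to 4 called genes with the largest change per stage comparison were named, and for each of the 10 genes the 2 named genes with the highest Pearson r. BRG1, BRG3, SEC, SNE, XERICO and the GA2OX genes were named in addition after their values were seen. The genes and lists were chosen with earlier results of these data known. Alternatives were centring arrays on their medians, cyclic loess, leaving out the 25% of rows with the lowest mean, a trend and robust variance prior, fits with only the groups compared, a replicate block, a threshold of 0.01, and leaving out each array. Replicates are called biological in the labels, and numbers were not used as pairs.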

Additional observations from a re-analysis of the deposited data

Results flagged for a closer look

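The difference between monosomal and total RNA of GID1C changed with stage by 1.01 (limma, adjusted p = 0.0313), by a test of the difference between seedlings and dry seeds. Its levels were 5.11, 4.13 and 4.64 in seedling monosomal RNA, against 3.78, 4.10 and 4.03 in seedling total RNA, and 6.98, 6.40 and 6.69 in dry seed monosomal RNA, against 6.98, 7.12 and 7.02 in dry seed total RNA. The call was lost in 5 of 18 fits without 1 array, those without seedling monosomal replicate 1 (0.77), seedling total replicate 1 (0.91), dry seed monosomal replicate 2 (0.86) or 3 (1.01), and dry seed total replicate 2 (0.97), with adjusted p between 0.052 and 0.078. It was also lost in the fit with only the 4 groups compared (adjusted p = 0.0642).

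The difference between polysomal and total RNA of RGL1 changed with stage by 1.28 (limma, adjusted p = 0.0361), by the same kind of test. Its levels were 4.71, 4.77 and 4.72 in seedling polysomal RNA, against 4.20, 3.38 and 3.83 in seedling total RNA, and 2.65, 2.37 and 2.60 in dry seed polysomal RNA, against 3.12, 3.03 and 2.51 in dry seed total RNA. The call was lost in 10 of 18 fits without 1 array, which were those without any 1 of the polysomal arrays of either stage, without dry seed total replicate 1 or 2, and without seedling total replicate 2 or 3. The change in those fits lay between 1.06 and 1.33. No dry seed polysomal or total array had RGL1 above its own median, so the dry seed part of this difference rests on levels close to background.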

How the results depend on the processing

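In the stage comparisons the counts of called genes, among the 10 and among all genes, stayed within 1.5 times under every alternative. Of single genes, GAI turned to −0.38 in total and −0.27 in polysomal RNA, and SLY1 to −0.34 in monosomal RNA, with arrays centred on their medians; SLY1 in monosomal RNA lay between −0.082 and 0.23 in the fits without 1 array, below 0 without seedling monosomal replicate 1 or 3. The cause was not tested. Counts between preparations were less stable. Of the 10 genes, monosomal against total RNA, as the difference between stages, had 2 called with median centring, loess or the low filter and 0 with only the groups compared, against 1. Loess gave 2 for seedling polysomal against monosomal RNA (1 as reported), and the trend and robust prior 1 for dry seed polysomal against total RNA (0). Only the groups compared gave 2 for seedling monosomal against total RNA (4) and 0 for dry seeds (2). At 0.01, monosomal against total RNA had 1 in seedlings, 0 in dry seeds and 0 for the difference between stages, and polysomal against total RNA had 1 in seedlings and 0 for the difference. Leaving out 1 array, monosomal against total RNA gave 2 to 4 in seedlings, 1 to 2 in dry seeds and 0 to 2 for the difference. Polysomal against total RNA gave 1 to 2, 0 to 1 and 0 to 1, and polysomal against monosomal RNA 1 to 3 in seedlings and 0 to 1 for the difference.

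Over all genes, dry seed polysomal against total RNA had 761 called with loess (1295 as deposited), and only the groups compared gave 2299 for seedling polysomal against monosomal RNA (5321) and 623 for dry seed monosomal against total RNA (1727). At 0.01, seedlings had 4676 (monosomal against total), 2958 (polysomal against total) and 2315 (polysomal against monosomal), dry seeds 673, 183 and 2789, and the differences between stages 2052, 792 and 1054 in the same order. Leaving out 1 array gave 944 to 1922 for dry seed monosomal and 188 to 1558 for dry seed polysomal against total RNA. For the differences between stages it gave 1530 to 2815 (polysomal against total) and 1835 to 2960 (polysomal against monosomal).

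Same-numbered arrays deviated together weakly at most: over 45 pairs r lay between −0.06 and 0.08, so the numbers were not taken as pairs. For total against polysomal RNA, r was 0.08, 0.07 and 0.05 in seedlings and −0.01, 0.08 and 0.07 in dry seeds. Between arrays of different number it lay between −0.07 and −0.0016 in seedlings and between −0.08 and 0.02 in dry seeds. Whether same-numbered preparations came from the same plants was not tested. With the replicate block, 9 of the 10 genes were called in total, 8 in monosomal and 9 in polysomal RNA, as without it, and no call of the 10 genes changed in the comparisons between preparations. The arrays carry no depth, and of the 10 genes GID1B and RGL1 in dry seeds and RGL3 in seedlings lie close to background.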
